A study of Mus musculus with 16 samples.

Results

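The transcripts of the tubulins, of the kinesin, dynein and dynactin motor subunits, and of the proteins that bind microtubule ends or the microtubule lattice were compared between the left ventricles (LV) of TGAC8 and wild-type (WT) mice. The members were every row of the deposited expression table whose symbol begins as a tubulin, a numbered kinesin, a cytoplasmic dynein subunit or light chain, a dynactin subunit, an end-binding protein (Mapre), a stathmin or a protein of the Map7 family, or is Map1a, Map1b, Map1s or Map4. This gave 57 of 11811 rows. The rule reads symbols alone, and because of its spelling it also took in 5 γ-tubulin complex proteins (Tubgcp2 to Tubgcp6) and the KIF1 binding protein (Kif1bp).

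RNA was sequenced from the LV of 8 TGAC8 and 8 WT males of the C57BL/6 background, all 3 months old and 1 library per mouse. TGAC8 mice carry a human adenylyl cyclase 8 cDNA behind the mouse α-myosin heavy chain promoter, which is active in cardiomyocytes, and descend from a donated breeder pair. The WT mice carry no transgene, and the labels give no treatment for either genotype. The comparison asks which microtubule transcripts differ in a heart that overexpresses an enzyme that makes cAMP.

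Microtubules are hollow polymers of α- and β-tubulin dimers. In cardiomyocytes they run along and around the myofibrils, carry mRNA, ribosomes, membrane proteins and mitochondria, and add stiffness to the contracting cell, the more so when the carboxy-terminal tyrosine of α-tubulin has been removed. Kinesins mostly walk toward the plus end, cytoplasmic dynein with its cofactor dynactin walks toward the minus end, and end-binding and lattice-binding proteins set how long a microtubule lasts.

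Within the tubulins, the 2 most abundant α transcripts, Tuba4a and Tuba8, fell in TGAC8 LV on the scale as deposited. The 2 most abundant β transcripts, Tubb4b and Tubb5, rose. Tubb5 was no longer called after a scaling of libraries described below (limma adjusted p = 0.076). Tuba8 was no longer called with the replicate number as a block (limma adjusted p = 0.061). The lowest adjusted p (Kif5b) and the highest fold change (Map1a) of the members lay outside the tubulins. Over all classes, 16 of the 57 members rose and 3 fell at a Benjamini-Hochberg adjusted p under 0.05 (limma, adjusted over all 11544 tested genes), where 20.9% of all tested genes rose and 4.65% fell. The members' shares were 28.1% and 5.26%, near those of all tested genes. The median log2 fold change of the members, 0.13, was also near that of all tested genes, 0.12, and 29 members lay above that median and 28 below it. All 57 members passed the filter on low values, a mean of at least 0.5 FPKM (fragments per length of transcript and per size of the library) over the 16 libraries, and 55 of them had a mean of at least 1 FPKM.

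Some facts of the whole series bear on every value. The human ADCY8 transcript was at 412 to 602 FPKM in the TGAC8 libraries, with a median of 499, whereas 7 WT libraries list it at 0 and WT replicate 2 at 0.345 FPKM, so every library matched its label (exact permutation test, 2-sided p = 0.00016, the smallest it can give). The FPKM summed over all rows ran from 314283 to 374087 in TGAC8 and from 356854 to 407506 in WT libraries. A scaling in which the typical gene has the same level in every library (geometric scaling) moved the median log2 fold change of all genes to 0.01. On that scale 7 members rose and 5 fell, against 9.78% and 10.7% of all tested genes, and 10 members were called in the same direction on both scales. Marker transcripts of other cells moved with genotype too. The summed FPKM of 11 fibroblast markers was 199 to 361 in TGAC8 and 162 to 187 in WT libraries, with 10 of 11 called higher. The sum of 11 macrophage markers was 147 to 215 against 108 to 146, again with 10 of 11 called higher. The sum of 11 cardiomyocyte markers was 21550 to 26460 against 26630 to 29040, with 4 called lower and 1 higher as deposited. The most abundant of them, Myl2, averaged 6739 FPKM. After geometric scaling 8 of the 11 were called lower and 1 higher. When all libraries were given the same distribution of values (quantile normalization), 2 were called lower and 2 higher. As deposited, none of 10 endothelial markers was called, and 4 of 10 smooth muscle and pericyte markers were called higher. No marker in these 5 lists was at 0 in all libraries. The part of cell makeup in the results below was not tested, and in whole LV tissue fewer cells of a type and less RNA per cell cannot be told apart.

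**Figure D1:**
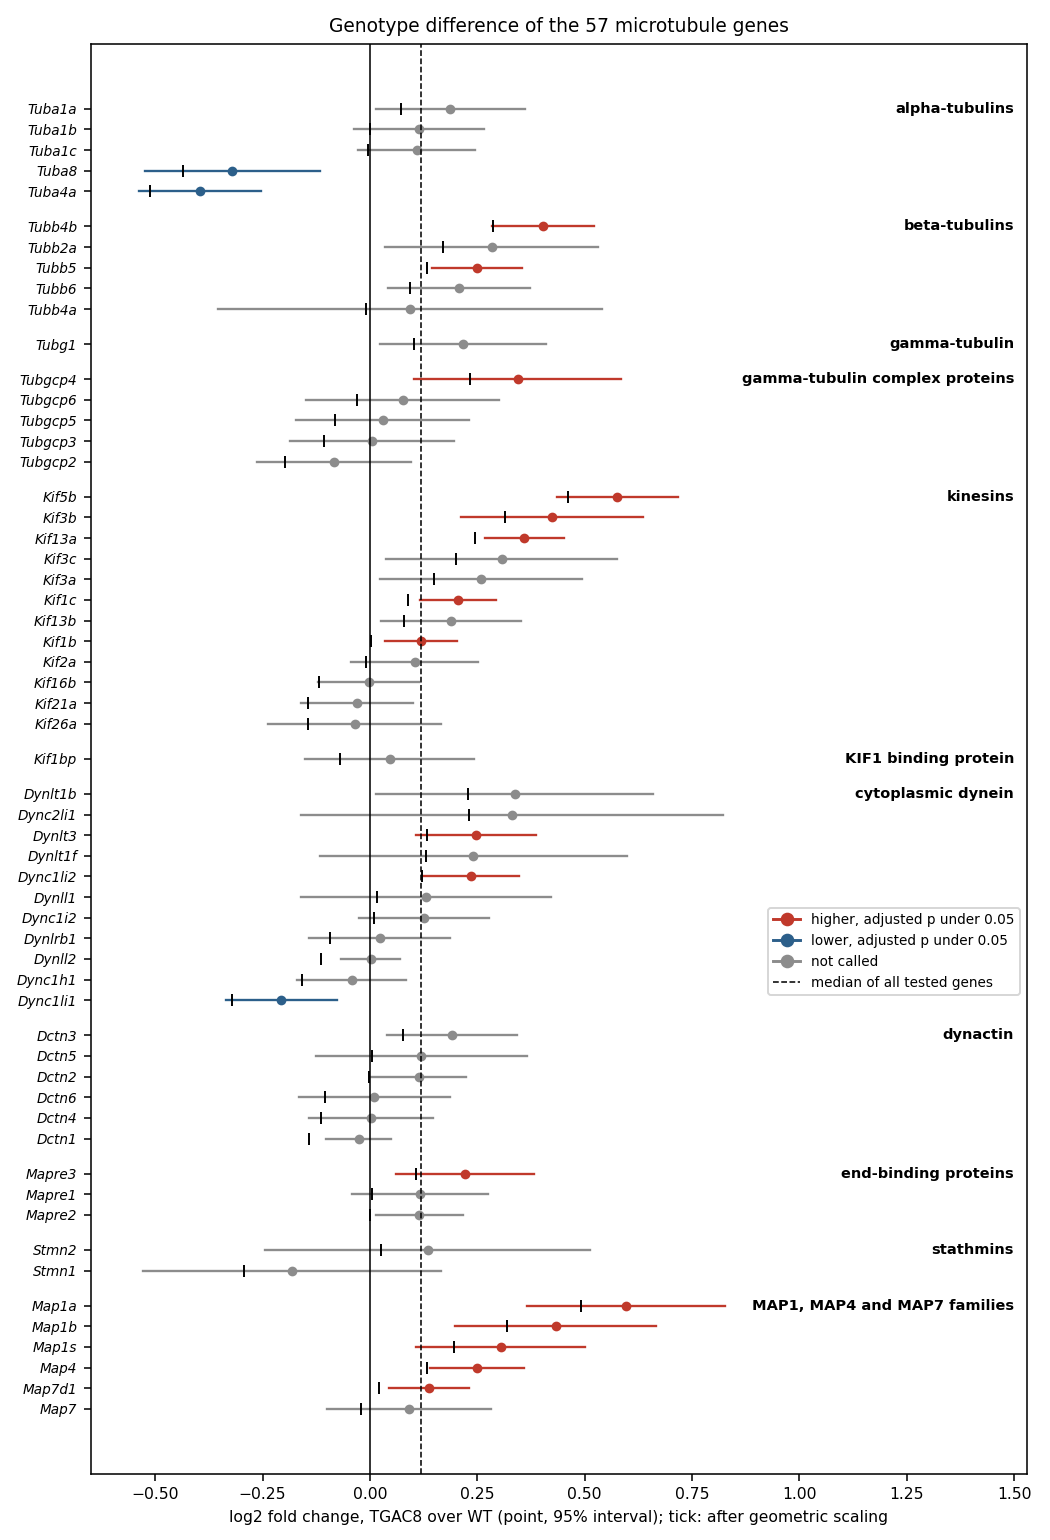
Log2 fold change (TGAC8 over WT, horizontal axis) of each of the 57 members by class, on the FPKM scale as deposited. Points are estimates of 8 against 8 mice, bars are 95% intervals, black ticks are the estimates after geometric scaling, and the dashed line is the median of all tested genes, 0.12. Tuba4a, Tuba8 and Dync1li1 are the members called lower, and Map1a (0.60) and Kif5b (0.58) lie farthest to the right.

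The α-tubulin genes differ in the end of the reading frame, the part that encodes the tail on which the tyrosine cycle acts, and the ends of 3 of them are shown because the 2 isotypes that fell differ there from Tuba1c, which was not called. Each line gives the last 60 bases of the coding sequence, 5′ to 3′ on the coding strand, from GENCODE transcripts on mm10, with the last sense codon in capitals and the stop codon after it.
Tuba4a: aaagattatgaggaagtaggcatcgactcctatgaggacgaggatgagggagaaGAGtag
Tuba8: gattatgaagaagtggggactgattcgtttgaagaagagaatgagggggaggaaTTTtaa
Tuba1c: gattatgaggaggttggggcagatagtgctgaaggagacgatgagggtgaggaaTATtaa
Tuba1c ends in TAT, a codon for tyrosine, so that the encoded protein can lose and regain it. Tuba4a ends in GAG, a glutamate codon, so its product is made without the tyrosine, and Tuba8 ends in TTT, for phenylalanine.

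Tuba4a lies at chr1:75214228-75219865 on the minus strand and was the most abundant tubulin transcript in WT LV. Its level ranged from 47.2 to 69.9 FPKM in TGAC8 libraries (median 60.8) and from 73.6 to 87.3 FPKM in WT libraries (median 78.9). Every TGAC8 library lay below every WT library, which held for 1.13% of all tested genes. The log2 fold change was -0.40 ± 0.07 (SE; 95% interval -0.54 to -0.25, limma adjusted p = 0.00037), and -0.51 after geometric scaling. Of the annotated exonic bases of Tuba4a, 37.3% also lie in exons of Stk16 on the opposite strand. The sources used here do not say whether strand entered the counting. Stk16 was at 4.97 to 6.78 FPKM in TGAC8 and 3.86 to 5.54 FPKM in WT libraries and was called higher (log2 fold change 0.38, limma adjusted p = 0.0016), the direction opposite to Tuba4a.

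Tuba8, at chr6:121210696-121226854 on the plus strand, is the α-tubulin known for its expression in heart, skeletal muscle and testis. It was at 40.1 to 61.3 FPKM in TGAC8 libraries (median 52.6) and 50.01 to 78.2 FPKM in WT libraries (median 61.9). The ranges overlapped, and 2 TGAC8 libraries lay below the lowest WT library. The log2 fold change was -0.32 ± 0.10 (SE; limma adjusted p = 0.021), and -0.44 after geometric scaling. Of the annotated exonic bases of Tuba8, 16.3% also lie in exons of Gm15856 on the opposite strand.

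None of the 3 Tuba1 isotypes, which are made in most cell types, passed the test. Tuba1b was at 8.46 to 12.2 FPKM in TGAC8 (median 9.72) and 8.46 to 10.2 FPKM in WT libraries (median 9.12), and Tuba1a at 7.29 to 10.3 FPKM (median 9.60) and 6.76 to 8.97 FPKM (median 8.21). Tuba1c was at 5.49 to 7.58 FPKM (median 6.35) and 5.48 to 6.21 FPKM (median 5.98). Their log2 fold changes were 0.11 to 0.19 as deposited, and those of Tuba1b and Tuba1c changed sign, to -0.00057 and -0.0049, after geometric scaling. These 3 values are uncertain one by one, because 78.3% of the 75-base words of the Tuba1b transcript, 70.5% of those of Tuba1a and 56.7% of those of Tuba1c also occur in another annotated gene, chiefly in each other. Summed over the 3, where a read placed on the wrong Tuba1 isotype still counts, the level was 21.4 to 29.6 FPKM in TGAC8 and 21.6 to 24.8 FPKM in WT libraries. Such reads do not cancel exactly, because the transcripts used here differ in length (Tuba1b 1743, Tuba1a 1803 and Tuba1c 1982 bases). Some words also occur in annotated genes outside the 3, which the sum does not cover.

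**Figure D2:**
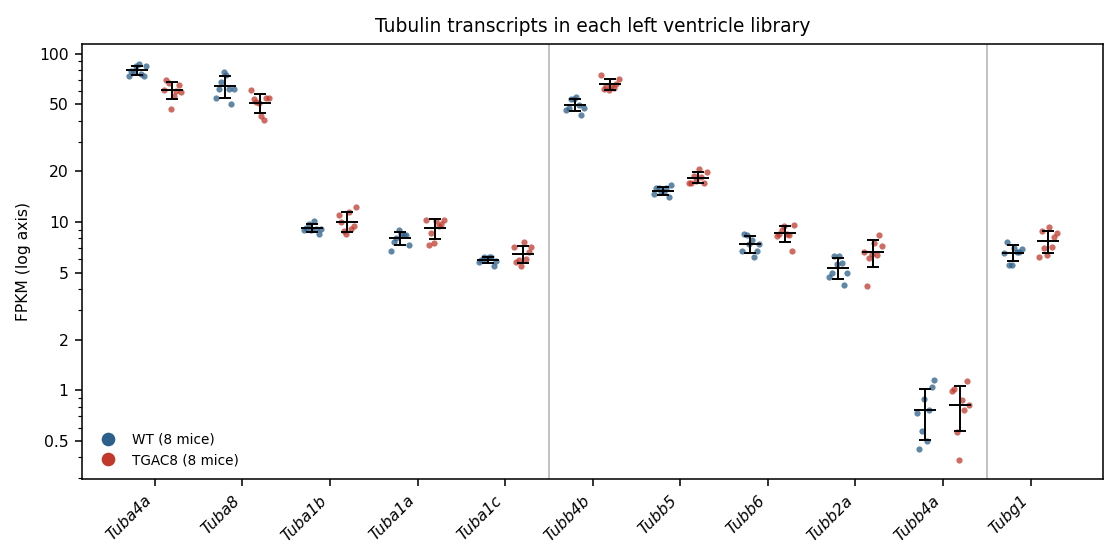
FPKM (log axis) of 5 α-, 5 β- and 1 γ-tubulin transcripts in each library, with 8 WT mice in blue, 8 TGAC8 mice in red, and mean ± SD in black. The genotypes do not overlap for Tuba4a, Tubb4b and Tubb5, and the sides are reversed for Tuba4a.

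Among the β-tubulins, Tubb4b, at chr2:25222160-25224702 on the minus strand, was at 60.9 to 74.3 FPKM in TGAC8 (median 64.5) and 43.3 to 55.4 FPKM in WT libraries (median 48.8). All 8 TGAC8 libraries were above all WT libraries, which held for 4.79% of all tested genes. The log2 fold change was 0.40 ± 0.06 (SE; 95% interval 0.28 to 0.52, limma adjusted p = 5.3e-05), and 0.29 after geometric scaling (limma adjusted p = 0.00034). Of its 75-base words 40.9% also occur in annotated pseudogenes of Tubb4b.

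Tubb5, at chr17:35833921-35838306 and with none of its 75-base words shared, was at 17.0 to 20.6 FPKM in TGAC8 (median 18) and 14 to 16.5 FPKM in WT libraries (median 15.5), again without overlap. Its log2 fold change of 0.25 ± 0.05 (SE; limma adjusted p = 0.0015) became 0.13 after geometric scaling, where it was no longer called (limma adjusted p = 0.076). The other 3 β-tubulins were not called. Tubb6, which is prominent in regenerating skeletal muscle, was at 6.70 to 9.65 FPKM in TGAC8 (median 8.5) and 6.19 to 8.51 FPKM in WT libraries (median 7.43; limma adjusted p = 0.061, and 0.039 without WT replicate 2). Tubb2a was at 4.16 to 8.38 FPKM (median 6.54) and 4.23 to 6.33 FPKM (median 5.34; limma adjusted p = 0.087), and 43.2% of its 75-base words occur elsewhere, first of all in Tubb2b. Tubb4a, typical of brain, was at 0.388 to 1.14 FPKM and 0.448 to 1.15 FPKM, the rarest of the 5.

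The β-tubulin reading frames do not end in a tyrosine codon. The ends of 4 of them, in the same format as for the α-tubulins, carry many glutamate codons (gag and gaa) before the last codon, in capitals, which codes for alanine in each.
Tubb4b: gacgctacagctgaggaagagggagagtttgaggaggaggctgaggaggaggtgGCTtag
Tubb5: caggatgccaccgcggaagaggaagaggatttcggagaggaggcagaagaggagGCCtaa
Tubb2a: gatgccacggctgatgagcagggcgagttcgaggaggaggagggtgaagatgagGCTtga
Tubb4a: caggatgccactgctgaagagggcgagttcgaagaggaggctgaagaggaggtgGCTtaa

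Because Tuba4a and Tuba8 fell while Tubb4b and Tubb5 rose as deposited, the balance between the families was described within each library. There the scaling of the library cancels. The summed β-tubulin level was 92.1 to 109 FPKM in TGAC8 and 69.2 to 85.0 FPKM in WT libraries. The summed α-tubulin level was 120 to 151 FPKM in TGAC8 and 146 to 187 FPKM in WT libraries. The ratio of summed β- to summed α-tubulin FPKM was therefore 0.730 ± 0.060 (SD, n = 8) in TGAC8 and 0.472 ± 0.018 in WT, and the lowest TGAC8 ratio, 0.627, was above the highest WT ratio, 0.494. No test was made of these sums, which were formed after the single values were known.

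Within the α family, Tuba4a made up 44.1 ± 3.4% (SD, n = 8) of the summed FPKM in TGAC8 and 47.9 ± 1.9% in WT, and Tuba8 37.1 ± 3.4% and 38.2 ± 2.4%. The Tuba1 isotypes together made up 15.7 to 22.8% in TGAC8 and 12.9 to 15.3% in WT libraries, without overlap. In the β family Tubb4b made up 65.7 ± 1.8% in TGAC8 and 63.2 ± 1.4% in WT, Tubb5 18.4 ± 1.3% and 19.6 ± 1.2%, and Tubb6 8.58 ± 1.0% and 9.41 ± 0.88%.

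**Figure D3:**
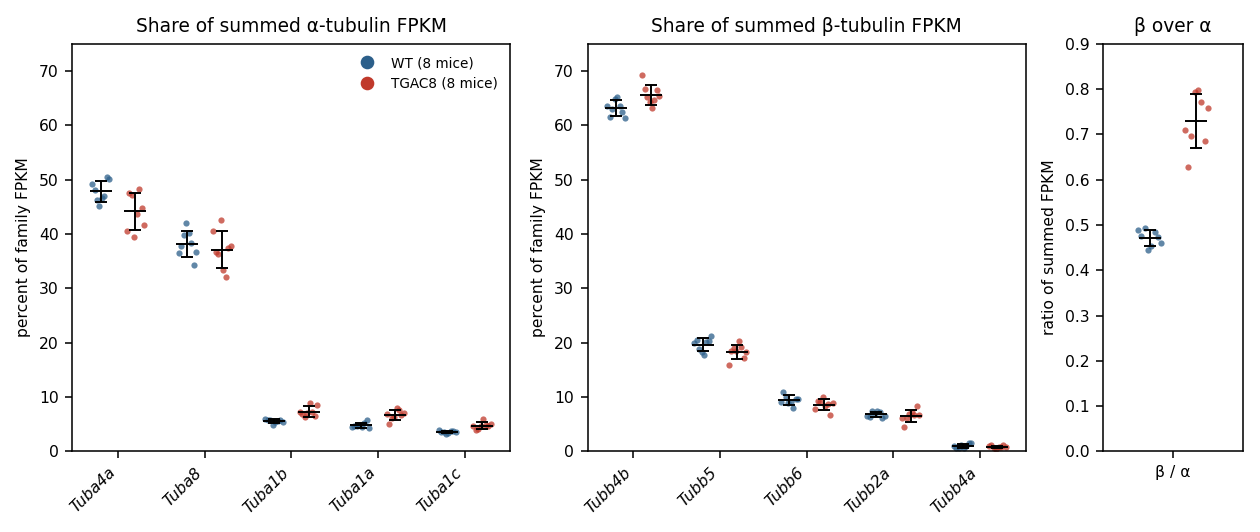
Percent of the summed FPKM of the α-tubulin family (left) and of the β-tubulin family (middle) held by each isotype, and the ratio of summed β- to summed α-tubulin FPKM (right), 1 point per library, with 8 WT mice in blue, 8 TGAC8 mice in red, and mean ± SD in black. The order of isotypes is the same in both genotypes, and the β over α ratio is 0.627 or more in TGAC8 and 0.494 or less in WT libraries.

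The 7 ratios of an isotype to the most abundant isotype of its family were tested by exact permutation over the 16 libraries, 2-sided, with p adjusted over the 7. The log2 ratio to Tuba4a was higher in TGAC8 by 0.51 ± 0.09 (SE) for Tuba1b (adjusted p = 0.00054, exact), by 0.58 ± 0.10 for Tuba1a (adjusted p = 0.0015, exact) and by 0.51 ± 0.09 for Tuba1c (adjusted p = 0.00054, exact). For Tuba1b and Tuba1c no TGAC8 library overlapped a WT library. These 3 ratios share Tuba4a. The ratio of Tuba8 to Tuba4a was higher by 0.08 ± 0.10 and was not called (adjusted p = 0.45, exact). In the β family no ratio to Tubb4b passed the threshold. The differences were -0.15 ± 0.07 for Tubb5 (adjusted p = 0.054, exact), -0.19 ± 0.09 for Tubb6 (adjusted p = 0.062, exact) and -0.12 ± 0.10 for Tubb2a (adjusted p = 0.31, exact), and with a pseudocount of 1 in place of 0.1 the first 2 passed, both at 0.032.

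New microtubules start from γ-tubulin ring complexes. Tubg1, γ-tubulin itself, was at 6.20 to 9.33 FPKM in TGAC8 (median 7.64) and 5.56 to 7.66 FPKM in WT libraries (median 6.64) and was not called (log2 fold change 0.22, limma adjusted p = 0.094). Of the 5 complex proteins only Tubgcp4 was called, at 2.23 to 3.69 FPKM in TGAC8 (median 2.97) and 1.83 to 2.78 FPKM in WT libraries (median 2.30). The log2 fold change was 0.34 ± 0.11 (SE; limma adjusted p = 0.035), and the call was lost without WT replicate 2 (limma adjusted p = 0.069) and after geometric scaling (0.16). Of the 75-base words of Tubgcp4 46.4% also lie in Trp53bp1. Exons of Trp53bp1 and Zscan29 overlap those of Tubgcp4 on the opposite strand. Zscan29 was called higher (log2 fold change 0.72, limma adjusted p = 0.00017), and Trp53bp1 was not called (0.15, limma adjusted p = 0.17). Tubgcp2, the most abundant of the 5, had a log2 fold change of -0.08 (limma adjusted p = 0.50). Beside these genes, which also serve the centrosomes of dividing cells, 21 proliferation markers were listed, of which 9 had values. The summed FPKM of the 9 was 21.6 to 30.7 in TGAC8 and 13.1 to 18.4 in WT libraries. Cenpf, the most abundant of them, alone averaged 11.2 FPKM over the 16 libraries. Of the 5 that could be tested only Cenpf was called (median log2 fold change 0.16), and the part of dividing cells was not tested.

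Of the 12 kinesins, 5 rose and none fell on the deposited scale, where 20.9% of all tested genes rose and 4.65% fell. After geometric scaling 3 (Kif5b, Kif13a and Kif3b) also rose, beside 9.78% of all tested genes. With quantile normalization, which gives all libraries the same distribution of values, Kif5b, Kif13a and Kif1c rose, and Kif3b was not called (limma adjusted p = 0.063). Kif5b, the heavy chain of conventional kinesin in most tissues and the carrier of many organelles, had the lowest adjusted p of all members. It was at 41.8 to 55.7 FPKM in TGAC8 (median 49.3) and 28.1 to 35.0 FPKM in WT libraries (median 32.9). The genotypes did not overlap, and the log2 fold change was 0.58 ± 0.07 (SE; 95% interval 0.44 to 0.72, limma adjusted p = 8.3e-06), or 0.46 after geometric scaling. Kif13a, a motor of endosomal and Golgi-derived vesicles, was at 19.9 to 23.8 FPKM (median 21.8) and 16.1 to 17.5 FPKM (median 17.0). It did not overlap either, and its log2 fold change was 0.36 ± 0.04 (SE; limma adjusted p = 1.3e-05).

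Kif3b, a subunit of kinesin-2, was less abundant, at 1.58 to 2.27 FPKM in TGAC8 (median 2.0) and 1.14 to 1.96 FPKM in WT libraries (median 1.44), with 5 of 8 TGAC8 libraries above the highest WT library and a log2 fold change of 0.42 ± 0.10 (SE; limma adjusted p = 0.0054). Kif1c, a vesicle motor and the most abundant kinesin transcript here, was at 79.4 to 96.0 FPKM in TGAC8 (median 88.5) and 73.5 to 82.7 FPKM in WT libraries (median 75.4). Of its TGAC8 libraries 7 were above the highest WT library, the log2 fold change was 0.20 ± 0.04 (SE; limma adjusted p = 0.0017), and after geometric scaling it was 0.09 and no longer called (limma adjusted p = 0.079). Kif1b, which carries mitochondria or synaptic vesicle precursors depending on the isoform, was at 35.2 to 38.3 FPKM and 32.0 to 36.9 FPKM. Its log2 fold change of 0.12 ± 0.04 (SE; limma adjusted p = 0.035) equalled the median of all tested genes to 2 decimals. It was 0.0034 after geometric scaling, and the call was lost without WT replicate 2 (limma adjusted p = 0.070). The other 7 kinesins had log2 fold changes of -0.04 to 0.31. Kif1bp, which binds and holds back several kinesins, was at 8.33 to 14.9 FPKM and 9.87 to 12.5 FPKM, with a log2 fold change of 0.05 that became -0.07 after geometric scaling. No member was classed as a kinesin of cell division, so such kinesins were not analysed here.

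Of the 11 dynein members 2 rose and 1 fell as deposited, where 20.9% of all tested genes rose and 4.65% fell. The pair of light intermediate chains, which link the dynein heavy chain to cargo adaptors, went opposite ways. Dync1li1 was at 15.5 to 21.1 FPKM in TGAC8 (median 17.2) and 18.1 to 21.6 FPKM in WT libraries (median 20.9), with 5 TGAC8 libraries below the lowest WT library. For Dync1li1 the log2 fold change was -0.21 ± 0.06 (SE; limma adjusted p = 0.020), and -0.32 after geometric scaling. Dync1li2 was at 9.77 to 11.9 FPKM in TGAC8 (median 10.4) and 8.40 to 9.62 FPKM in WT libraries (median 9.15), without overlap, and its log2 fold change was 0.23 ± 0.05 (SE; limma adjusted p = 0.0037). After geometric scaling Dync1li2 was at 0.12 and not called (limma adjusted p = 0.15). Of the summed FPKM of the 2 chains, where the scaling cancels, Dync1li2 held 38.0 ± 3.1% (SD, n = 8) in TGAC8 and 31.1 ± 1.0% in WT. The libraries overlapped narrowly, with a lowest TGAC8 share of 32.5% and a highest WT share of 32.8%. This share was chosen after the values were seen and was not tested.

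Dynlt3, a light chain of the Tctex family, was at 10.3 to 14.1 FPKM in TGAC8 (median 12.3) and 9.37 to 11.8 FPKM in WT libraries (median 9.86), with a log2 fold change of 0.25 ± 0.07 (SE; limma adjusted p = 0.012) that was no longer called after geometric scaling (0.098). Dynlrb1, a roadblock light chain and the most abundant dynein member, was at 53.5 to 78.0 FPKM and 49.9 to 70.7 FPKM, with a log2 fold change of 0.02 (limma adjusted p = 0.86) that became -0.09 after geometric scaling. The other 7 dynein members had log2 fold changes of -0.04 to 0.34, and none was called as deposited. After geometric scaling Dynll2, a light chain named here after its values were seen, was called lower, at -0.11 (limma adjusted p = 0.0086), although its levels were 55.6 to 63.1 FPKM in TGAC8 and 58.5 to 62.5 FPKM in WT libraries. The 7 also include Dynlt1b and Dynlt1f, near-identical copies whose summed level was 2.43 to 5.26 FPKM in TGAC8 and 2.17 to 3.72 FPKM in WT libraries. None of the 6 dynactin subunits was called as deposited. Dctn1, the large subunit that binds both dynein and the microtubule, was at 25.0 to 28.8 FPKM in TGAC8 (median 27.7) and 27.1 to 29.2 FPKM in WT libraries (median 27.7), with a log2 fold change of -0.03 (95% interval -0.10 to 0.05), and after geometric scaling it was called lower, at -0.14 (limma adjusted p = 0.00088).

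**Figure D4:**
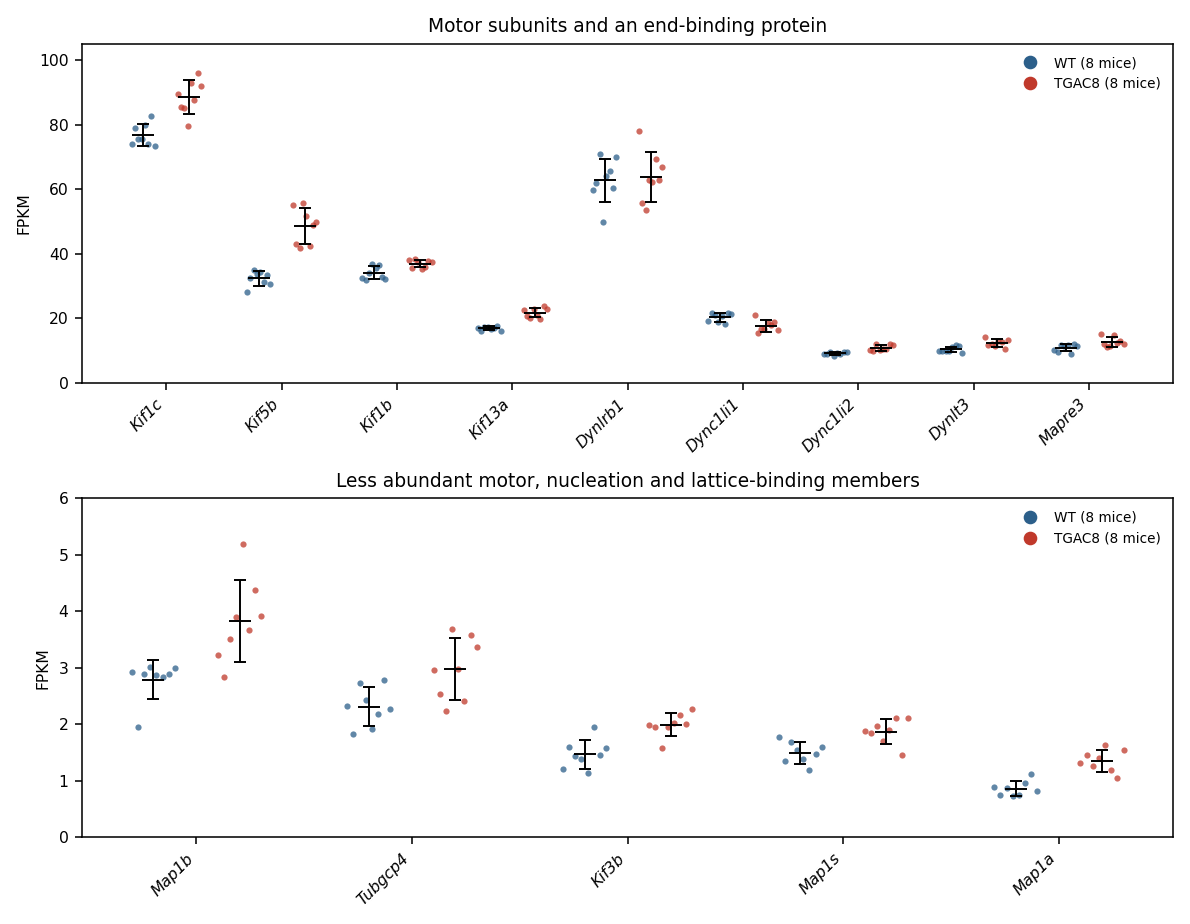
FPKM (linear axis from 0) in each library of 9 more abundant (top) and 5 less abundant (bottom) motor, end-binding, nucleation and lattice-binding transcripts, with 8 WT mice in blue, 8 TGAC8 mice in red, and mean ± SD in black. Kif5b, Kif13a and Dync1li2 do not overlap between genotypes, and WT replicate 2 is the lowest WT library for Map1b (1.94 FPKM).

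Of the 6 members of the lattice-binding families 5 rose and none fell as deposited, where 20.9% of all tested genes rose and 4.65% fell. Map1a, Map1b and Map4 also rose after geometric scaling, beside 9.78% of all tested genes. With quantile normalization Map1a, Map4 and Map7d1 rose, and with the replicate number as a block 3 of the 6 rose. Map4, which binds along the microtubule in cardiomyocytes and most other cells, was at 61.8 to 77.6 FPKM in TGAC8 (median 69.6) and 51.8 to 64.9 FPKM in WT libraries (median 59.3). Of its TGAC8 libraries 7 of 8 were above the highest WT library, and the log2 fold change was 0.25 ± 0.05 (SE; limma adjusted p = 0.0022). Map7d1, of a family that recruits kinesin-1 to microtubules, was the most abundant member of all, at 82.0 to 99.9 FPKM (median 91.6) and 78.7 to 86.7 FPKM (median 81.4). Its log2 fold change of 0.14 ± 0.04 (SE; limma adjusted p = 0.030) was 0.02 after geometric scaling, and without WT replicate 2 the adjusted p was 0.057.

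Map1a and Map1b, best known from neurons, were much less abundant and had larger fold changes. Map1a was at 1.04 to 1.63 FPKM in TGAC8 (median 1.36) and 0.727 to 1.12 FPKM in WT libraries (median 0.847). Its log2 fold change, 0.60 ± 0.11 (SE; 95% interval 0.37 to 0.83, limma adjusted p = 0.00068), was the highest of all members. Map1a and Tubgcp4 carry the same locus entry in the table, and Map1a shares 1.68% of its 75-base words with Ppip5k1 on the opposite strand. Map1b was at 2.85 to 5.19 FPKM (median 3.78) and 1.94 to 3.01 FPKM (median 2.89), with a log2 fold change of 0.43 ± 0.11 (SE; limma adjusted p = 0.0089). Map1s, the ubiquitous short member of the family, was at 1.46 to 2.11 FPKM (median 1.89) and 1.18 to 1.78 FPKM (median 1.5), with a log2 fold change of 0.30 (limma adjusted p = 0.024, and 0.19 after geometric scaling). Beside the MAP1 proteins, the nerve and glia marker Uchl1 was called higher (2.50 to 6.20 FPKM in TGAC8 and 1.52 to 3.26 FPKM in WT libraries).

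Of the 3 end-binding proteins, which sit on growing plus ends, Mapre3 was called higher, at 11.1 to 15 FPKM in TGAC8 (median 12.3) and 8.91 to 11.9 FPKM in WT libraries (median 11.4). The log2 fold change of Mapre3 was 0.22 ± 0.08 (SE; limma adjusted p = 0.042), and the call was lost without WT replicate 2 (0.081) and after geometric scaling (0.29). Neither stathmin was called. Stmn1, which binds free tubulin dimers, was at 1.43 to 3.65 FPKM (median 2.98) and 2.31 to 3.79 FPKM (median 3.46), with a wide 95% interval for its log2 fold change of -0.53 to 0.17.

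Of the 57 members 42 have a RefSeq promoter entry here (GRCm38.p6, 250 bases before to 50 after the start), and several have more than 1 start, which gave 50 promoters. The promoter of the β-tubulin with the lowest adjusted p is shown beside that of the α-tubulin with the lowest, each on the minus strand, with the core site of the cAMP response element (TGACG, either strand), the TATA box TATAAA and the CCAAT box CCAAT in capitals.
Tubb4b, chr2:25224653-25224952: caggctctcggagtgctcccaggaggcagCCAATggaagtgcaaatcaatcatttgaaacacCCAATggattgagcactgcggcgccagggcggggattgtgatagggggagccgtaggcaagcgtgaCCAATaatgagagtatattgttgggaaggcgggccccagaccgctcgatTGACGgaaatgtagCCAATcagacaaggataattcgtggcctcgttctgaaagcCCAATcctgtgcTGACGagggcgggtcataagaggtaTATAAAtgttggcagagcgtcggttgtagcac
Tuba4a, chr1:75219245-75219544: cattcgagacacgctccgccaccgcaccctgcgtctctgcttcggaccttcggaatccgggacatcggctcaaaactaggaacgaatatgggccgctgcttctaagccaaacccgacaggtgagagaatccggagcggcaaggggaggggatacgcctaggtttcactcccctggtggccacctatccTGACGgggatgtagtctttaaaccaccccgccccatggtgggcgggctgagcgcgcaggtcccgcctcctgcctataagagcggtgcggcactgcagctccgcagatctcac
The Tubb4b promoter holds 2 core sites, 5 CCAAT boxes and 1 TATAAA, and the Tuba4a promoter 1 core site and neither of the others. Over the members, 19 of 50 promoters (38%) held the core site, against 20.81% of 32851 promoters of all genes, and 2 (4%) held the full element TGACGTCA, against 1.79%. The 2 with the full element belong to Dctn3 and Tubb2a, neither of which was called as deposited (limma adjusted p = 0.059 and 0.087). Whether either site goes with a genotype difference was not tested. The GC box GGGCGG occurred in 76% against 35.66%, CCAAT in 34% against 37.41% and TATAAA in 8% against 13.62%. Some entries overlap, such as those of Kif1b and of Dynlrb1, so the same site can count more than once. Counted by gene, 17 of 42 held the core site. No share by gene was computed over all genes, and the 20.81% is per promoter, so the 2 cannot be set side by side. The promoters of all genes were not limited to genes expressed in LV and were not matched for base composition. The match is of letters alone.

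Genes that modify, fold, nucleate, sever or load microtubules outside the 57 members were taken from lists. Of 86 such genes with values, 22 rose and 3 fell as deposited (20.9% and 4.65% of all tested genes), with a median log2 fold change of 0.13, and 8 rose and 12 fell after geometric scaling. Of 14 tubulin-modifying genes 2 rose. Atat1, the α-tubulin acetyltransferase, was at 1.33 to 2.40 FPKM in TGAC8 (median 1.76) and 0.627 to 1.66 FPKM in WT libraries (median 1.08; log2 fold change 0.67, limma adjusted p = 0.016). Ttll7, a polyglutamylase that acts on β-tubulin, was at 0.999 to 2.32 FPKM (median 1.88) and 1.04 to 1.58 FPKM (median 1.13; log2 fold change 0.50, limma adjusted p = 0.020). The 3 genes of the tyrosine cycle with values, named here after they were seen, were not called. They are Vash1 (2.39 and 2.33 FPKM on average in TGAC8 and WT) and its partner Svbp (6.63 and 6.14 FPKM), which remove the tyrosine, and Ttl (3.38 and 3.44 FPKM), which adds it back.

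Of 14 tubulin folding genes Tbce (log2 fold change 0.38, limma adjusted p = 0.026) and Tbcel (0.30, limma adjusted p = 0.032) rose, the first a cofactor in the assembly of the dimer. Of 6 further genes of the nucleation list Cdk5rap2 (0.31, limma adjusted p = 0.022) and Pcnt, a centrosome scaffold (0.26, limma adjusted p = 0.0040), rose, and of 7 severing and minus-end genes Katna1, a katanin subunit (0.31, limma adjusted p = 0.024), and Camsap2 (0.16, limma adjusted p = 0.036; 0.055 without WT replicate 2). Of these 6, none was called higher after geometric scaling. On that scale 3 of the 14 folding genes, 2 of the 6 nucleation genes and none of the 7 severing and minus-end genes were called lower, beside 10.7% of all tested genes. Of all tested genes 20.9% rose as deposited and 9.78% after geometric scaling.

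Of 21 plus-end and lattice genes 7 rose and 2 fell as deposited, where 20.9% of all tested genes rose and 4.65% fell. Mtus2, a microtubule-associated protein that binds end-binding proteins, was at 55.3 to 72.2 FPKM in TGAC8 (median 64.7) and 32.4 to 36.5 FPKM in WT libraries (median 35.2), without overlap. The change on the log2 scale, 0.87 (limma adjusted p = 8.3e-10), was above that of any of the 57 members. The tubulin polymerization-promoting proteins Tppp3 (5.24 to 13.2 against 4.59 to 8.88 FPKM; log2 fold change 0.65, limma adjusted p = 0.0097) and Tppp (2.21 to 4.95 against 1.68 to 2.91 FPKM; 0.63, limma adjusted p = 0.0029) rose as well, as did Mid1 (0.54, limma adjusted p = 0.027). After geometric scaling Mtus2, Tppp3, Tppp and Atat1 were still called higher and Mid1 and Ttll7 were not, and Atat1 was not called with quantile normalization (limma adjusted p = 0.066). With geometric scaling 4 of the 21 plus-end and lattice genes were called higher and 5 lower, beside 9.78% and 10.7% of all tested genes.

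Of 24 motor adaptors and light chains 7 rose and 1 fell as deposited, where 20.9% of all tested genes rose and 4.65% fell. Trak2, which couples kinesin-1 and dynein to mitochondria, was at 41.1 to 49.2 FPKM in TGAC8 (median 44.0) and 29.4 to 32.2 FPKM in WT libraries (median 30.6), without overlap (log2 fold change 0.52, limma adjusted p = 1.2e-07). Klc4, a light chain of kinesin-1, rose by 0.35 on the log2 scale (limma adjusted p = 0.0014) and Kifc3, a minus-end-directed kinesin, by 0.32 (limma adjusted p = 0.00043), at 10.4 to 13.0 FPKM against 7.85 to 9.76 FPKM. Hook1, a dynein adaptor, fell, at 2.83 to 3.94 FPKM in TGAC8 (median 3.48) and 3.91 to 5.05 FPKM in WT libraries (median 4.56; log2 fold change -0.37, limma adjusted p = 0.0031). After geometric scaling Trak2, Klc4, Kifc3 and Hook1 were called in the same directions. On that scale 3 of the 24 were called higher and 2 lower, beside 9.78% and 10.7% of all tested genes.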

How the data were processed

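LV RNA of 8 TGAC8 and 8 WT mice was sequenced as stranded total RNA libraries from low input with 75-base single-end reads. The authors aligned the reads to mm10 with the human ADCY8 cDNA added (TopHat2 2.1.1 per the submitters' processing notes) and summarised them with Cufflinks 2.1.1. The deposited values are FPKM per library, estimated by the authors and divided by transcript length and mapped fragments. The deposited table also holds the authors' Cuffdiff columns (FPKM per genotype, log2 fold change, p-value, q-value, test score), which were not used. FPKM hide the sequencing depth, so precision rests on the spread between mice. Neither the annotation nor whether strand entered the counting is stated in the sources used here.

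Groups came from the labels. A linear model per gene was fitted with limma 3.58.1 (R 4.3.3) to log2(FPKM + 0.1), with moderated variances that follow a trend, for the 11544 genes averaging 0.5 FPKM or more. Tests were 2-sided with Benjamini-Hochberg adjustment at 0.05 over all of them, and fold changes on this scale understate those of low genes. The fit was tested on simulated data. Geometric scaling divided each library by the exponential of its median log deviation from the gene means. Isotype ratios and the transgene were tested by exact permutation. Positions, exon overlaps and 75-base words came from GENCODE on mm10, and promoters from RefSeq on GRCm38.p6. Protein sequences were not used here, and the coding ends of Tuba1a and Tuba1b are not reported here.

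Named genes were every tubulin, every other called member averaging 1 FPKM or more in either genotype, the most abundant member of each class, and of each related list up to 4 called genes with the largest fold change. The members and lists were chosen with earlier results of these data known. Alternatives were pseudocounts of 1 and 0.01, no filter and a filter at 1 FPKM, geometric scaling, quantile normalization, the replicate number as a block, and leaving out WT replicate 2, the WT library with human ADCY8 signal.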

Additional observations from a re-analysis of the deposited data

Results flagged for a closer look

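Among 130 sets of 8 values (each named transcript, share and ratio in each genotype), 6 held a library whose gap to its nearest neighbour was large for the range of the set by Dixon's criterion, and chance alone gives about 1 in 20. WT replicate 2 was the WT library with human ADCY8 signal (0.345 FPKM, the other 7 at 0) and also had the lowest Map1b, at 1.94 FPKM with the next WT library at 2.83. Without it Map1b kept its call (limma adjusted p = 0.014). TGAC8 replicate 3 had the lowest Kif3b of its genotype, at 1.58 FPKM with the next at 1.94, and TGAC8 replicate 7 the lowest Tubb6, at 6.70 FPKM with the next at 8.28. WT replicate 5 had the highest Pcnt, at 13.9 FPKM with the next at 12.1, and WT replicate 8 the lowest Mtus2, at 32.4 FPKM with the next at 34.7. The causes were not tested.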

How the results depend on the processing

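Both pseudocounts and both filters left the call of every named transcript as it was where it was tested. Scaling mattered most. With geometric scaling 7 members rose and 5 fell, and quantile normalization gave the same counts but not the same genes. There Kif1c and Map7d1 kept their calls, Kif3b (adjusted p = 0.063) and Map1b (0.075) lost theirs, and Tubgcp2 (0.049), not Dynll2, was among the lower. Of the related genes 8 rose and 12 fell with geometric scaling and 8 and 11 with quantile normalization. Transcripts that were not called changed sign with geometric scaling and quantile normalization, in that order: Tuba1b to -0.00057 and -0.0099, Tuba1c to -0.0049 and -0.014, Tubb4a to -0.0098 and -0.090, Kif1bp to -0.069 and -0.065, and Dynlrb1 to -0.093 and -0.021. With a pseudocount of 1 the ratios of Tubb5 (-0.16) and Tubb6 (-0.21) to Tubb4b passed the threshold. Same-numbered libraries did not deviate together (correlations -0.062 to 0.0067, none best with its own number). The labels do not say what the numbers stand for. A pairing that leaves no trace in expression would not be seen this way, so whether the numbers pair the mice is not known. With the replicate number as a block 15 members rose and 1 fell, the calls of Map7d1, Kif1b, Mapre3, Tuba8, Map1s and Dync1li1 were lost, those of Dctn3, Tubg1 and Tubb6 were gained, and the 3 called ratios kept their calls (adjusted p = 0.018, exact). Without WT replicate 2, 13 members rose and 3 fell. FPKM carry no depth, so counting error at low levels is unknown.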
